A study of Mus musculus with 24 samples.

Results

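Ly86 and Cd180, with the Toll-like receptor genes Tlr2, Tlr3, Tlr4 and Tlr7, the Tlr4 partners Ly96 and Cd14 and the adaptor Myd88, were followed in mouse spinal cord after nerve injury. The 9 genes were matched by gene symbol in a table of 32884 genes, and all 9 were present. Ly86 and Cd180 were selected on their levels on day 3 and day 7 against sham, so those differences are given as a description and support nothing. Spinal cord was taken 3, 7 or 14 days after spared nerve injury (SNI), in which the common peroneal and tibial branches of the sciatic nerve are tied and cut, a model of neuropathic pain. Sham mice had the nerve exposed only, and all sham libraries are labelled day 3, so time after surgery and injury cannot be told apart on days 7 and 14. Each of the 4 groups had 3 input RNA libraries and 3 libraries enriched for N6-methyladenosine (m6A), the methyl mark on adenosine in messenger RNA, 24 libraries in all.

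The labels give poly(A) RNA from whole spinal cord and name no strain, sex or age, and leave unsaid whether a group's libraries are from separate animals. The p-values therefore measure the spread between these libraries, which may be technical. Levels are FPKM, fragments per length of the gene model, scaled to the mapped fragments of the library, in the 12 input libraries. FPKM summed to 180340 to 201358 per library. The sequencing depth is unknown, since read counts were not used here. Libraries resembled each other closely within a group: over 2017 genes at a mean of 20 FPKM or more, the median coefficient of variation was 1.60 to 1.94% among the libraries of day 3 and day 14 and between libraries 1 and 2 of day 7 and of sham. Day 7 library 3 and sham library 3 stood apart, and with them the median was 16% on day 7 and 16.5% in sham. Results that rest on these libraries are given with and without them.

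Toll-like receptors are membrane proteins that recognise microbial molecules and molecules released by damaged cells. In the nervous system they are known mainly from microglia, the resident macrophages. Tlr2 and Tlr4 act at the cell surface, and Tlr3 and Tlr7 read RNA inside endosomes. Ly96 (MD-2) binds lipopolysaccharide together with Tlr4, and Cd14 hands lipopolysaccharide to that pair. Cd180 (RP105) resembles Tlr4 but lacks the cytoplasmic signalling domain, and Ly86 (MD-1) is its bound partner, as Ly96 is that of Tlr4. Cd180 is best known from B cells and myeloid cells, where the pair modulates Tlr4 responses. Myd88 passes the signal on from Tlr2, Tlr4 and Tlr7, whereas Tlr3 uses the adaptor Ticam1.

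Over the 12 libraries, Ly86 had the highest mean level of the 9 genes, at 3.62 FPKM, followed by Tlr3 at 3.44 and Myd88 at 2.16 FPKM. This order pools the groups: in sham alone the mean of Ly86, 1.93 FPKM, was below that of Tlr3, 3.78 FPKM, and next to that of Myd88, 1.9 FPKM. Cd14 stood at 1, Tlr2 at 0.855, Cd180 at 0.686 and Ly96 at 0.575 FPKM. The 2 lowest were Tlr7 at 0.427 and Tlr4 at 0.150 FPKM. Ly86 ran from 1.46 to 5.68 FPKM over the libraries and overlapped Tlr3, which ran from 2.92 to 5.36 FPKM. Myd88 ran from 1.47 to 2.63 FPKM, below every Tlr3 value and above every Cd14 value. From Cd14 down to Tlr4, each gene overlapped its neighbour in this order, and Cd180 ran from 0.359 to 1.08 FPKM. Genes with a mean of at least 0.5 FPKM were tested, 15564 in all, so 7 of the 9 genes had a test and Tlr4 and Tlr7 had none. FPKM is per length of the gene model, so levels of different genes can be set side by side, as far as the authors' models hold. The deposited models of Cd180 and Tlr4 end far downstream of the RefSeq genes, so the FPKM of both, their place in this order and ratios formed with them depend on those models.

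**Figure D1:**
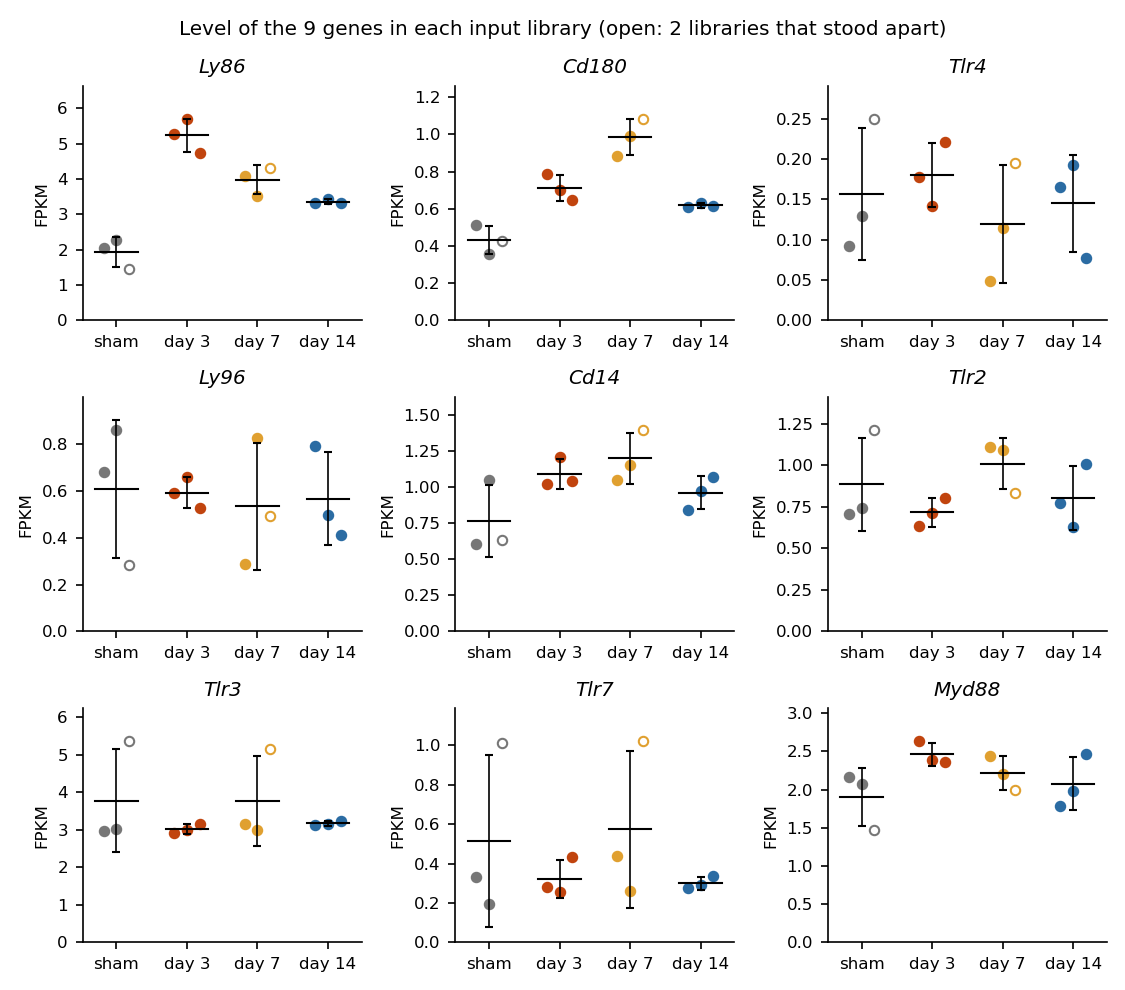
FPKM (vertical axis, starting at 0, scaled for each gene) of the 9 genes in each input library by group, with the group mean as a line and the SD of 3 libraries as a bar. Ly86 and Cd180 lie higher in all injured libraries than in all sham libraries, while the open points, day 7 library 3 and sham library 3, are the highest for Tlr3 and Tlr7.

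Ly86, the secreted partner of Cd180, was the gene of this family with the largest difference after injury. In sham it stood at 2.06, 2.28 and 1.46 FPKM in libraries 1 to 3. On day 3 it stood at 5.28, 5.68 and 4.73 FPKM, on day 7 at 4.08, 3.53 and 4.32 FPKM, and on day 14 at 3.31, 3.43 and 3.31 FPKM. Every injured library lay above every sham library, and the day 3 libraries lay above all of day 7, which lay above all of day 14. The means were 1.93 ± 0.424 in sham, 5.23 ± 0.477 on day 3, 3.98 ± 0.404 on day 7 and 3.35 ± 0.0718 FPKM on day 14 (SD, n = 3 each).

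Against sham the Ly86 mean was 2.71-fold on day 3, 2.06-fold on day 7 and 1.73-fold on day 14. On the log2(FPKM + 0.5) scale of the limma fit, which understates changes of low genes, the differences were 1.25 ± 0.13 on day 3 and 0.89 ± 0.13 on day 7 (SE). Both passed the adjusted p threshold of 0.05, which is how Ly86 came to be chosen. Without day 3 library 1 or library 2 the day 3 difference was 1.24 or 1.19 and missed the threshold, and the day 7 difference missed it whenever 1 library other than sham library 3 was left out. With the replicate number as a block the day 7 difference was 0.89 ± 0.13 and did not pass (limma adjusted p = 0.104). Genes that passed upward made up 0.0514% of all tested genes on day 3 and 0.103% on day 7. The day 14 difference, which did not serve the choice but uses the same sham libraries, was 0.68 ± 0.13 and did not pass (limma adjusted p = 0.245), beside 0.0514% of all genes that did. Without day 7 library 3 and sham library 3 it was 0.53 ± 0.08 and passed (limma adjusted p = 0.0101), where 2.42% of all genes passed upward.

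Among injured cords the level of Ly86 was highest on day 3. From day 3 to day 7 it was lower by a log2 difference of -0.36 ± 0.13 (limma adjusted p = 0.791), and from day 3 to day 14 by -0.57 ± 0.13 (limma adjusted p = 1), so neither difference passed with all 12 libraries. In these fits 0.0129% of all genes passed in either direction for day 7 against day 3, and likewise 0.0129% for day 14 against day 3. Without the 2 libraries that stood apart, both passed: -0.41 ± 0.08 for day 7 (limma adjusted p = 0.0446) and -0.57 ± 0.07 for day 14 (limma adjusted p = 0.00851). Among all genes, 0.874% and 1.05% then passed downward. Ly86 was chosen on its day 3 and day 7 levels, and these fits reuse those libraries. Its differences between injured days are therefore a description and support nothing. From day 7 to day 14 the difference was -0.21 ± 0.13 with all libraries (limma adjusted p = 0.784) and did not pass without those 2 either (limma adjusted p = 0.388).

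Cd180, the membrane protein of the pair, was highest on day 7 rather than on day 3. Its sham libraries held 0.512, 0.359 and 0.425 FPKM. On day 3 they held 0.787, 0.701 and 0.645 FPKM, on day 7 0.883, 0.993 and 1.08 FPKM, and on day 14 0.611, 0.633 and 0.613 FPKM. Again every injured library lay above every sham library, but here the day 7 libraries lay above all of day 3, which lay above all of day 14. The means were 0.432 ± 0.0769 in sham, 0.711 ± 0.0714 on day 3, 0.984 ± 0.0973 on day 7 and 0.619 ± 0.0122 FPKM on day 14 (SD, n = 3 each).

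The Cd180 mean was 1.65-fold that of sham on day 3, 2.28-fold on day 7 and 1.43-fold on day 14. The log2 difference was 0.67 ± 0.10 on day 7, past the threshold by which the gene was chosen. That call is close to its limit: it passed in 4 of 26 alternative analyses, and in none that left out a single library. With the replicate number as a block it was 0.67 ± 0.11 and did not pass (limma adjusted p = 0.194). On day 3 the log2 difference was 0.38 ± 0.10 and did not pass. On day 14 it was 0.27 ± 0.10 (limma adjusted p = 0.7) and did not pass, with or without the libraries that stood apart. The difference from day 7 to day 14, -0.41 ± 0.10, did not pass (limma adjusted p = 0.635), and 0.0321% of all genes passed in either direction in that comparison. Without the 2 libraries, Ly86 and Cd180 both passed on day 7, where 0.732% of all genes passed upward, and on day 3 Ly86 alone of the 7 tested genes passed, beside 4.01% of all genes upward.

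The ratio of Ly86 to Cd180 is given for each library. It was 4.01, 6.36 and 3.44 in the sham libraries, 6.72, 8.1 and 7.33 on day 3, 4.63, 3.56 and 4.01 on day 7, and 5.41, 5.42 and 5.4 on day 14. All day 3 ratios were above all ratios of the other groups. Between day 7 and day 3 the log2 ratio differed by -0.87, and between day 14 and day 7 by 0.42, with no overlap in either case. The two-sided exact permutation p was 0.1 for each, the smallest that 3 libraries against 3 allow, and 0.15 after adjustment over the 6 pairs of groups. Because Ly86 was chosen for day 3 and Cd180 for day 7, the ratio and its p are a description of the chosen pair and support nothing.

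Other genes also had injured libraries wholly above sham. On day 3, 3 of the 7 tested genes (Ly86, Cd180 and Myd88) had all libraries above all sham libraries, beside 13.4% of all tested genes. On day 7 the 3 were Ly86, Cd180 and Cd14, beside 2.78%, and on day 14 the 2 were Ly86 and Cd180, beside 12.2%. Between injured days, Ly86 alone was lower in all day 7 than in all day 3 libraries (9.79% of all genes), while Cd180 and Tlr2 were higher (6.58%). Ly86 and Cd180 were lower in all day 14 than in all day 7 libraries (6.44%) and than in all day 3 libraries (9.87%). Both were chosen on their day 3 and day 7 levels, so their place in these counts is a description and supports nothing. Apart from them, Myd88 alone lay wholly above sham on day 3, Cd14 alone on day 7 and no tested gene on day 14.

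**Figure D2:**
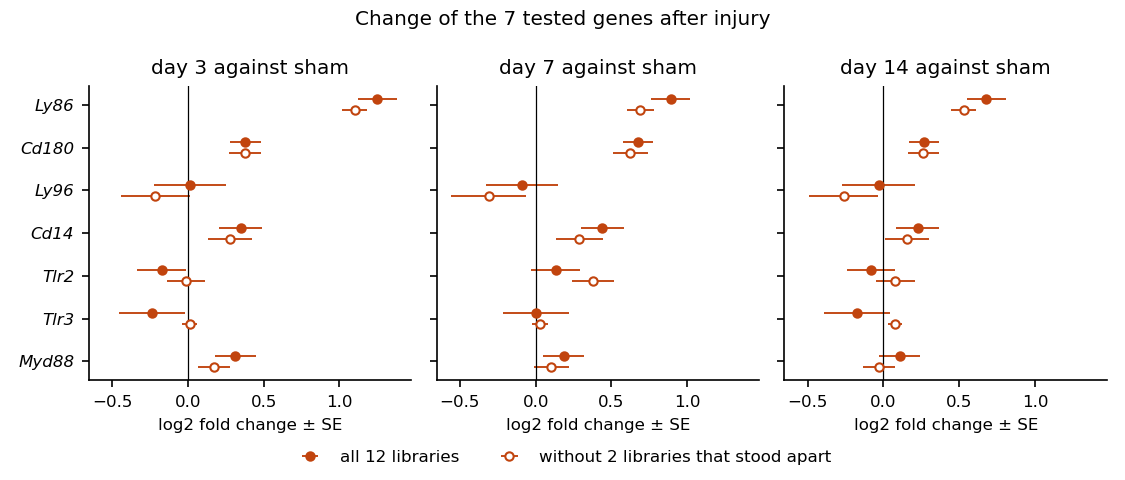
Log2 fold change with its SE (horizontal axis) of the 7 tested genes on each day against sham, with all 12 libraries (filled) and without day 7 library 3 and sham library 3 (open). Ly86 lies farthest to the right on all 3 days, at 1.25, 0.89 and 0.68 with all libraries, and Tlr3 lies at 0.01, 0.03 and 0.07 without the 2 libraries.

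The stretches upstream of both genes are shown because the pair was higher together after injury. RefSeq promoter windows (GRCm38.p6, 250 bases before to 50 after a gene's start) were matched by symbol for 5 of the 9 genes: Ly86, Cd180, Tlr2, Tlr3 and Myd88. Ly86 lies on chromosome 13, at 37345208 to 37419036 on the plus strand in the files, and the 113 bases before that start are chr13:37345095-37345207. Cd180 lies on the same chromosome and strand, at 102693558 to 102739629, and the 250 bases before its RefSeq start are chr13:102693297-102693546. Capitals mark the letters GGAAGT, called the ETS core here, which read ACTTCC because the match is on the opposite strand.
Ly86: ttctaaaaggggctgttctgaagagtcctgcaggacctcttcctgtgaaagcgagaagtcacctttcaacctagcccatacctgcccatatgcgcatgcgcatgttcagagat
Cd180: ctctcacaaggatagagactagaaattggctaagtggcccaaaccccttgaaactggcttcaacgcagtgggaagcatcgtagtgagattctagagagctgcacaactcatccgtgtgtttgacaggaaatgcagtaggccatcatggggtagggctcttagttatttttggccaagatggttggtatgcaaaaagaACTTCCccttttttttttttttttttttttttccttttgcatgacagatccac

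In these stretches Cd180 has 1 match to the letters GGAAGT, a form of the short motif read by PU.1 and related factors. It lies 53 bases before that RefSeq start. Before another RefSeq start of Cd180, with 250 bases at chr13:102693308-102693557, it lies at 64 bases. Ly86 has no match to these letters. Shorter forms of the motif were not searched, so either stretch may hold other ETS-type letters. The longer PU.1 letters GAGGAAGT, which contain the core, matched no window of the 5 genes. The NF-kB letters GGGANTTTC matched Tlr3, and the interferon response letters GAAANNGAA matched Myd88 40 bases before its start and Ly86 at its RefSeq start, downstream of the bases shown. Tlr2 and Myd88 also held the ETS core. Both strands were searched in the full windows. Of 32851 RefSeq windows of 300 bases, 3.2% held the PU.1 letters, 23.8% the ETS core, 1.11% the NF-kB letters and 8.56% the interferon response letters. A match is a description of letters and not a binding site.

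Microglia markers were also higher after injury, and this bears on both genes. The summed level of 16 markers, among them P2ry12, Tmem119 and C1qa, was 126 to 154 FPKM in sham, 207 to 213 on day 3, 207 to 236 on day 7 and 178 to 184 on day 14. Their median log2 difference from sham was 0.608, 0.572 and 0.333 on the 3 days, beside medians of 0.03, 0.01 and 0.03 over all tested genes. On each day 15 of the 16 had a log2 difference above 0, Sall1 being the exception. On day 3, 1 marker passed the threshold (Tmem119), on day 7 1 (C1qa) and on day 14 none. Without the libraries that stood apart 12, 10 and 7 of the 16 passed upward, beside 4.01%, 0.732% and 2.42% of all genes. In whole tissue, more cells of a type and more RNA per cell cannot be told apart.

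Ly86 differed from sham by more than any of the 16 markers on each of the 3 days. Its log2 differences of 1.25, 0.89 and 0.68 stood above the highest marker values of 0.849, 0.82 and 0.632, and without the libraries that stood apart its 1.10, 0.69 and 0.53 stood above 0.692, 0.593 and 0.365. Relative to the mean log2 level of the markers in the same library, Ly86 was at -1.42, -1.26 and -1.43 in sham. It was at -0.67, -0.55 and -0.81 on day 3, at -0.96, -1.16 and -0.99 on day 7, and at -0.999, -1.01 and -1.05 on day 14. No injured library overlapped sham, and day 3 lay above the other days. The mean shift from sham was 0.69, 0.33 and 0.35 on the 3 days. It stayed free of overlap with pseudocounts of 0.1 and 1 and without the 2 libraries. Ly86 was chosen on its day 3 and day 7 differences, and day 14 uses the same sham libraries. Its excess over the markers is therefore a description and supports nothing.

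With all 12 libraries, the log2 differences of Cd180 from sham lay within the range of the markers. Relative to the markers it was at -2.75, -2.95 and -2.51 in sham, -2.84, -2.92 and -3 on day 3, -2.69, -2.59 and -2.6 on day 7, and -2.78, -2.8 and -2.83 on day 14. Sham overlapped each injured group. The shift on day 7 was 0.11 and rests on the pseudocount, since it was 0.42 with a pseudocount of 0.1 and -0.04 with 1. Without the 2 libraries it was 0.21 with no overlap. Its log2 difference from sham exceeded that of 3 of the 16 markers on day 3, 10 on day 7 and 6 on day 14, and without the 2 libraries that of 3, all 16 and 10. In plain FPKM the 2.28-fold of Cd180 on day 7 was above the highest marker fold of 1.9 (Itgam), while its 1.65-fold on day 3 and 1.43-fold on day 14 were below the highest, 1.98 and 1.69. From day 3 to day 7 the difference of Cd180, 0.29, was above that of all 16 markers. The difference of Ly86, -0.36, was below that of all 16. Both held with or without the 2 libraries, although neither difference passed the test with all 12 libraries. Both genes were chosen on their levels on days 3 and 7, so these comparisons with the markers are a description.

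**Figure D3:**
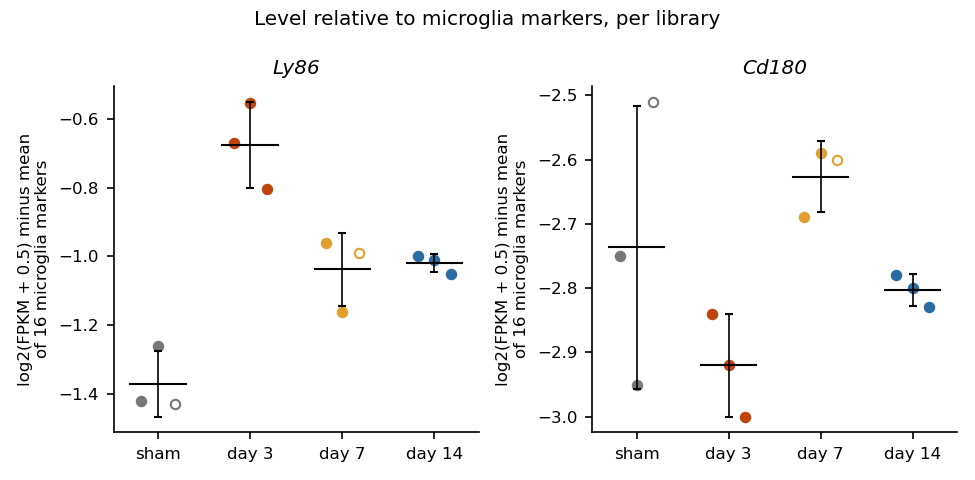
Level of Ly86 and Cd180 in each library as log2(FPKM + 0.5) minus the mean of 16 microglia markers (vertical axis, not starting at 0), by group, with mean and SD. Ly86 lies between -1.43 and -1.26 in sham and at -1.16 or higher in all injured libraries, whereas the Cd180 values of sham span those of day 7 and day 14.

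Genes whose pattern over the 12 libraries was most like that of Ly86 were, by Pearson's r of log2(FPKM + 0.5), Tmem176a (0.967), Tmem119 (0.961), Laptm5 (0.957), C1qb (0.932) and Olfml3 (0.928), out of 13478 genes with a mean of at least 1 FPKM. Those most like Cd180 were C1qa (0.942), Hba-a1 (0.908), Hba-a2 (0.908), Hbb-bs (0.896) and Hbb-bt (0.896). The Hba and Hbb genes encode the haemoglobin of red blood cells. Ly86 and Cd180 had an r of 0.687 with each other. These are descriptions over libraries that share groups and, in 2 cases, an unusual profile. Over the 10 other libraries the nearest to Ly86 were Rps29, Itm2c, Rpl31, Ubb and Cst3 (0.960 to 0.971), and the nearest to Cd180 were Hbb-bt, Hba-a1, Zdhhc2, Hba-a2 and Hbb-bs (0.958 to 0.965). Near-identical copies share reads among the haemoglobin genes, so their split is uncertain.

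Haemoglobin genes had the same order of groups as Cd180. Hba-a1 was at 50.2 to 78.5 FPKM in sham, 118 to 146 on day 3, 147 to 189 on day 7 and 96.7 to 102 on day 14. The summed level of 8 neutrophil markers was 4.52 to 7.90 FPKM in sham, 6.76 to 8.09 on day 3, 11.2 to 14.0 on day 7 and 2.85 to 3.23 on day 14, with Ly6g at or below 0.104 FPKM as a group mean. Both were highest on day 7, as Cd180 was. Unlike Cd180, the neutrophil sum overlapped sham on day 3 and lay below all sham libraries on day 14. Their part in the Cd180 result was not tested.

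Markers of B cells, the other cells known for Cd180, were low apart from Ighm. The group means of Ms4a1 were 0.00217 to 0.0375 FPKM, and the sum of 6 B cell markers was 23.0 to 32.6 FPKM in sham and 30.3 to 33.9 FPKM in injured cord, nearly all of it Ighm at 28.7 to 32.7 FPKM per group. Of 10 markers of monocytes and border macrophages, Cd74 alone was tested and did not pass on any day, and Ccr2 had group means of 0.0243 to 0.0439 FPKM. Their sum was 1.37 to 2.85 FPKM in sham and 2.14 to 4.54 FPKM after injury.

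Tlr4, the receptor for lipopolysaccharide, was at 0.0924, 0.129 and 0.249 FPKM in sham, 0.178, 0.142 and 0.221 on day 3, 0.0485, 0.115 and 0.195 on day 7, and 0.165, 0.193 and 0.0775 on day 14. All groups overlapped, and the gene was below the level required for a test. Its partner Ly96 was at 0.680, 0.857 and 0.283 FPKM in sham, 0.591, 0.659 and 0.525 on day 3, 0.288, 0.824 and 0.491 on day 7, and 0.789, 0.497 and 0.411 on day 14. The 4 groups overlapped here too. The log2 difference of Ly96 from sham was 0.02 ± 0.24 on day 3, -0.09 ± 0.24 on day 7 and -0.03 ± 0.24 on day 14, with limma adjusted p = 0.976, 1 and 0.954. The ratio of Ly96 to Tlr4 ran from 1.13 to 7.36 over the sham libraries alone, so no day could be set apart from sham by it.

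Cd14, the coreceptor, was at 0.604, 1.05 and 0.631 FPKM in sham, 1.02, 1.21 and 1.04 on day 3, 1.05, 1.15 and 1.39 on day 7, and 0.838, 0.973 and 1.07 on day 14. Sham library 2 reached into the range of days 3 and 14, and the lowest day 7 library lay just above it. The log2 difference was 0.35 ± 0.14 on day 3, 0.44 ± 0.14 on day 7 and 0.22 ± 0.14 on day 14, and none passed (limma adjusted p = 0.695, 1 and 0.7). The means were 0.762 ± 0.25, 1.09 ± 0.105, 1.20 ± 0.176 and 0.959 ± 0.115 FPKM (SD, n = 3 each). Relative to the microglia markers, the mean of Cd14 was -2.32 in sham and -2.53 to -2.42 after injury, and the groups overlapped.

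Tlr2, which senses bacterial lipoproteins at the cell surface, was at 0.706, 0.746 and 1.21 FPKM in sham, with the library that stood apart as the highest of all 12. It was at 0.632, 0.716 and 0.806 on day 3, 1.11, 1.09 and 0.831 on day 7, and 0.772, 0.629 and 1.01 on day 14. The log2 difference from sham was -0.17 ± 0.16, 0.13 ± 0.16 and -0.08 ± 0.16 on the 3 days, and none passed (limma adjusted p = 0.695, 1 and 0.811). Without the 2 libraries the day 7 difference was 0.38 ± 0.14 and did not pass either (limma adjusted p = 0.291).

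The endosomal receptors were set by the 2 libraries that stood apart. Tlr3, the receptor for double-stranded RNA, was at 5.36 FPKM in sham library 3 and 5.15 FPKM in day 7 library 3, and at 2.92 to 3.25 FPKM in the other 10. Tlr7, which reads single-stranded RNA, was at 1.01 and 1.02 FPKM in those 2 and at 0.194 to 0.439 FPKM in the other 10. Outside them the Tlr7 values of the 4 groups overlapped, and the gene had no test. For Tlr3 the log2 differences from sham without the 2 libraries were 0.01 ± 0.05, 0.03 ± 0.05 and 0.07 ± 0.05 (limma adjusted p = 0.919, 0.863 and 0.441). With all libraries they were -0.24 ± 0.22, 0.00 ± 0.22 and -0.17 ± 0.22. The group SD of Tlr3 was 1.36 FPKM in sham and 1.20 FPKM on day 7, against 0.121 FPKM on day 3 and 0.0655 FPKM on day 14.

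Myd88, the shared adaptor, was at 2.16, 2.08 and 1.47 FPKM in sham, 2.63, 2.39 and 2.36 on day 3, 2.44, 2.20 and 2.00 on day 7, and 1.79, 1.98 and 2.47 on day 14. Sham library 3, one of the 2 that stood apart, was the lowest, and day 3 alone lay wholly above sham. The log2 difference was 0.31 ± 0.14, 0.18 ± 0.14 and 0.11 ± 0.14 on the 3 days, and none passed (limma adjusted p = 0.695, 1 and 0.724). Without the 2 libraries the day 3 difference was 0.17 ± 0.10 (limma adjusted p = 0.377). Relative to the microglia markers, Myd88 was lower in all day 3 than in all sham libraries, and so were Tlr2, Tlr3, Tlr4, Tlr7 and Ly96. By construction this measure is lower for any gene at an unchanged level when the marker mean is higher.

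In the rest of the pathway no tested gene passed against sham with all 12 libraries. The 8 other Toll-like receptors, from Tlr1 to Tlr13, were all below the level required for a test, the highest being Tlr13 with group means of 0.333 to 0.716 FPKM. Of 17 adaptors and kinases 15 were tested, and none passed on any day or between days. The smallest p in that list belonged to Tirap, which bridges Myd88 to Tlr2 and Tlr4 (-0.38 ± 0.18 from day 7 to day 14), and to Irak4, the first kinase after Myd88 (0.19 ± 0.11 on day 7 against sham). Their median log2 difference from sham was -0.09, 0.01 and -0.06 on the 3 days.

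All 10 transcription factors of the pathway were tested and none passed. The nearest were Irf8, a myeloid lineage factor (0.35 ± 0.10 on day 7, limma adjusted p = 1), and Irf5, which acts after Myd88 (0.34 ± 0.13 on day 3, limma adjusted p = 0.695). Of 12 negative regulators 8 were tested and none passed, the nearest being Socs3, an inhibitor of cytokine signalling (0.37 ± 0.13 on day 3), and Trim30a, an inhibitor of NF-kB activation (-0.60 ± 0.22 on day 3), each with a limma adjusted p = 0.695. Of 5 genes of receptor trafficking and ligand transfer 4 were tested and none passed. Among these Hsp90b1, the chaperone of Toll-like receptors, differed by -0.41 ± 0.15 on day 14 (limma adjusted p = 0.7), and Unc93b1, which carries Tlr3 and Tlr7 to endosomes, by 0.56 ± 0.22 on day 3 (limma adjusted p = 0.695).

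Without the 2 libraries that stood apart some of these genes passed. Irf7, an interferon regulatory factor that also acts after Tlr7, fell by 1.36, 1.29 and 1.08 on the log2 scale on days 3, 7 and 14 (limma adjusted p = 0.00225, 0.0134 and 0.0101). With all 12 libraries its differences were -0.88, -0.73 and -0.60 and did not pass, sham library 3 standing at 0.731 FPKM against 3 and 2.58 FPKM in the other sham libraries. Trim30a fell by 0.72, 0.67 and 0.55 (limma adjusted p = 0.000955, 0.00609 and 0.00495). With all libraries its day 7 difference was -0.24, day 7 library 3 standing at 2.02 FPKM, above every sham library. Hsp90b1 fell by 0.24, 0.16 and 0.34 (limma adjusted p = 0.000193, 0.00566 and 1.93e-05), while with all libraries its day 7 difference was -0.01, with day 7 library 3 at 124 FPKM and a sham mean of 92.9 FPKM. Unc93b1 rose by 0.24 on day 3 (limma adjusted p = 0.033), and so did Hmgb1, a ligand released by damaged cells. Traf3 fell on days 3 and 14, Irf3 fell on day 3, Bgn fell on day 14, and S100a9 rose on days 3 and 7 and fell on day 14. Downward calls made up 3.06%, 0.379% and 2.29% of all genes on the 3 days in that fit. These genes were named after their values were seen.

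Of 9 endogenous ligands, molecules of the body reported to engage Toll-like receptors, all were tested and none passed against sham with all 12 libraries. S100a8 and S100a9, the calprotectin subunits that neutrophils make in large amounts, fell from day 7 to day 14 by 1.40 ± 0.16 and 1.59 ± 0.14 on the log2 scale (limma adjusted p = 0.0307 and 0.00798). The mean of S100a9 was 3 FPKM in sham, 4.42 on day 3, 6.12 on day 7 and 1.7 FPKM on day 14. Both genes also stand among the neutrophil markers given above. Of 16 output genes that the pathway is known to induce, 15 were in the table and none reached the level required for a test. Tnf, for instance, had group means of 0.0123 to 0.0883 FPKM and Il1b of 0.0156 to 0.119 FPKM. Ccl2 was at 0 FPKM in all sham libraries. It was at 0.346 to 0.76 on day 3, 0.345 to 0.776 on day 7 and 0.125 to 0.341 FPKM on day 14. The group mean of Ccl4 was 0.288 FPKM in sham, and 0.0982, 0.162 and 0.207 FPKM on the 3 days. These differences were not tested.

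**Figure D4:**
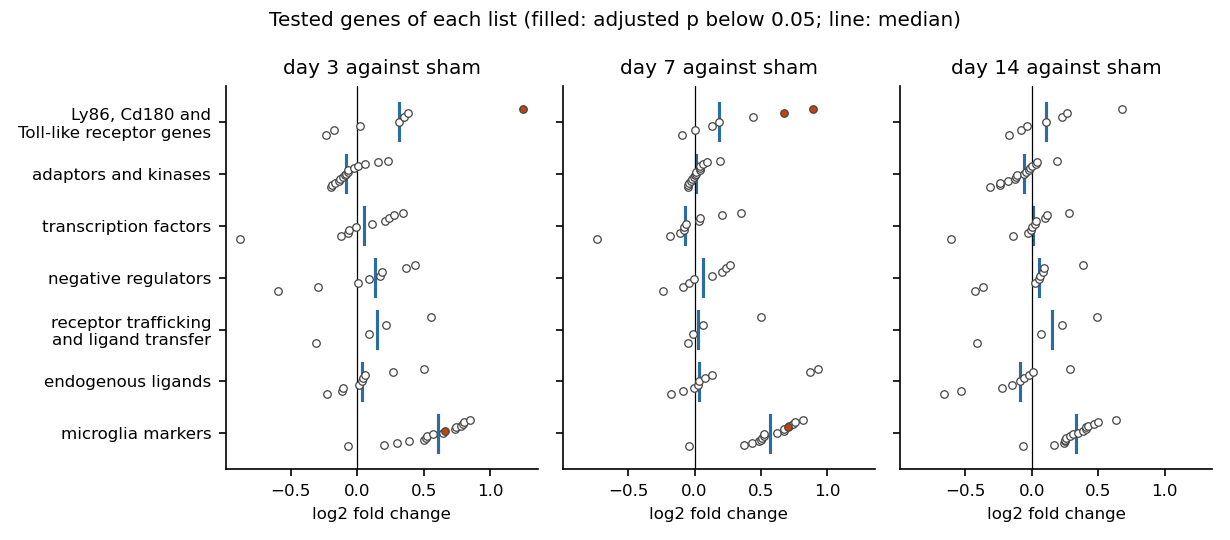
Log2 fold change (horizontal axis) of every tested gene in 7 lists on each day against sham, with the list median as a line and filled points for an adjusted p below 0.05. The filled points among the 7 tested genes are Ly86 on days 3 and 7 and Cd180 on day 7, the filled points among the microglia markers are Tmem119 on day 3 and C1qa on day 7, and the medians of the other lists lie between -0.09 and 0.15.

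The m6A data came as 1 peak list per group, each peak with a fold enrichment over input and a p from the authors. With 1 list per group no difference between groups could be tested, and the fold and p are the authors' own values for each peak. Peaks were assigned to a gene by the gene identifier in the peak's name. The 4 lists held 32669 peaks in sham, 40195 on day 3, 34136 on day 7 and 38655 on day 14. The 9 genes had 17, 20, 18 and 22 of them. Of these 77 peaks, 35 were annotated to a 3′ UTR, 7 to a 5′ UTR and 35 to other exons. Over all peaks of the 4 lists, 48.4%, 50.7%, 49.3% and 51.5% were annotated to a 3′ UTR.

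Of the 9 genes 7 had at least 1 peak in all 4 lists, and Ly96 and Myd88 had none in any. Among genes at a mean of 0.5 FPKM or more, 70.0% had a peak in all 4 lists. Of 3422 protein-coding genes at 2 to 5 FPKM, the range that holds Myd88, 4.03% had no peak in any list. Of 1157 protein-coding genes at 0.5 to 1 FPKM, where Ly96 stands, 5.36% had none. Tlr4 had peaks in all lists at a mean of 0.150 FPKM, as did 45.7% of 768 protein-coding genes at 0.1 to 0.2 FPKM, and Tlr7 at 0.427 FPKM did so with 59.1% of 1138 genes at 0.2 to 0.5 FPKM.

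Ly86 had a single peak at the 3′ end of the gene in every list. The base range covered in all 4 lists was chromosome 13, 37418887 to 37419036, 150 bases that end at the last base of the gene model, on the plus strand and annotated as 3′ UTR. The fold enrichment was 4.85 in sham, 8.35 on day 3, 9.68 on day 7 and 7.37 on day 14, beside list medians of 6.03, 4.54, 5.37 and 4.52. The injured lists thus gave a higher fold at this site although their medians were lower than that of sham. A further 59 bases upstream were covered in the 3 injured lists and not in sham. The annotation column names this stretch for Gm47731, an overlapping gene model, so reads of the 2 models may not be separable there. Sham also listed a 5′ UTR peak of 60 bases in Ly86, at a log10 p of -1.43.

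Cd180 had its strongest peak of each list in a stretch annotated as 3′ UTR. In sham there were 4 separate peaks over 1258 exonic bases, with folds of 2.62 to 10.1. On day 3 the strongest peak covered 1971 exonic bases in 2 blocks at a fold of 9.04, on day 7 it covered 1434 bases at 8.89, and on day 14 it covered 1404 bases at 5.25. Day 3 alone also listed a 5′ UTR peak, at the start of the gene. The 4 lists shared 960 bases, the longest run being 102705150 to 102705807 on chromosome 13. That run is a sham peak annotated as other exon, inside longer peaks of the injured lists annotated as 3′ UTR. All 3 injured lists, and not sham, also covered 445 bases, mostly the gap at 102705808 to 102706134 between the sham peaks. In sham Cd180 had its lowest level, so the same stretch had less RNA to call peaks from, and the part of level in peak width was not tested.

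Tlr4 had 2, 5, 3 and 4 peaks in sham, day 3, day 7 and day 14. All 4 lists covered 329 bases at 66841353 to 66841681 on chromosome 4, in a peak annotated as 3′ UTR with folds of 9.24, 10.6, 10.8 and 7.62. Tlr7, on the X chromosome, had 2, 6, 6 and 7 peaks, and the 4 lists shared 90 bases, 3.11% of the bases covered in any. Part of the peaks of both genes missed a fold of 2 or a p of 1e-05. For Tlr7 1 of 2, 3 of 6, 3 of 6 and 2 of 7 met a fold of 2 and a p of 1e-05. For Tlr4 1 of 2, 1 of 5, 2 of 3 and 1 of 4 did. Over all peaks the median log10 p was -16.4 in sham, -8.1 on day 3, -11.6 on day 7 and -9.21 on day 14. The share of all peaks that met both limits is not given here.

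Tlr2, on chromosome 3, had 1435 bases in common between the 4 lists, 64.1% of all bases covered in any. Its long 3′ peak had a fold of 7.17 in sham, 16.4 on day 3, 16.9 on day 7 and 10.2 on day 14. A second region, annotated as other exon, had a strongest peak with a fold of 7.02, 5.23, 5.31 and 4.53. The fold of the 3′ region was thus higher in the injured lists than in sham, and that of the second region was lower. The list medians were also lower after injury, 6.03 in sham and 4.54, 5.37 and 4.52 on the 3 days. In sham and on days 3, 7 and 14, the 3′ peak exceeded 58.7%, 94.7%, 94.2% and 84.4% of its list. The second region exceeded 57.8%, 56.2%, 49.4% and 50%. Neither region's difference from sham can be tested with 1 list per group, and the part of the lists' lower folds was not tested.

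Tlr3, on chromosome 8, had the smallest p of the 9 genes in every list, with a log10 p of -118 in sham, -86.7 on day 3, -145 on day 7 and -108 on day 14. Sham listed 2 peaks of 241 and 629 bases, while day 3 and day 7 listed 1 peak of 2125 and 2006 bases, and day 14 had 1 of 1647 and 1 of 360 bases. All 870 sham bases were covered in the injured lists. The strongest peak of Cd14, a gene on chromosome 18, had a fold of 9.59 in sham, 7.29 on day 3, 7.2 on day 7 and 7.82 on day 14. It exceeded 72.9%, 72.2%, 64.4% and 72.8% of the peaks of its list, and the list medians were lower after injury too. The part of the lists in the fold of this peak was not tested. Of this peak 538 bases were common to the 4 lists.

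With a reciprocal overlap of at least 50% of exonic bases, 5 of 20 peaks on day 3, 5 of 18 on day 7 and 9 of 22 on day 14 had a counterpart in sham. Over all peaks of these lists the shares were 42.4%, 54.5% and 45.4%. In turn, 5, 5 and 9 of the 17 sham peaks had a counterpart on days 3, 7 and 14, beside 52.2%, 57.0% and 53.8% of all sham peaks. With an overlap of 1 base, 11, 12 and 15 injured peaks had one, from all 7 genes with peaks, beside 63.1%, 73.4% and 64.9% of all peaks. No test was made of these shares.

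**Figure D5:**
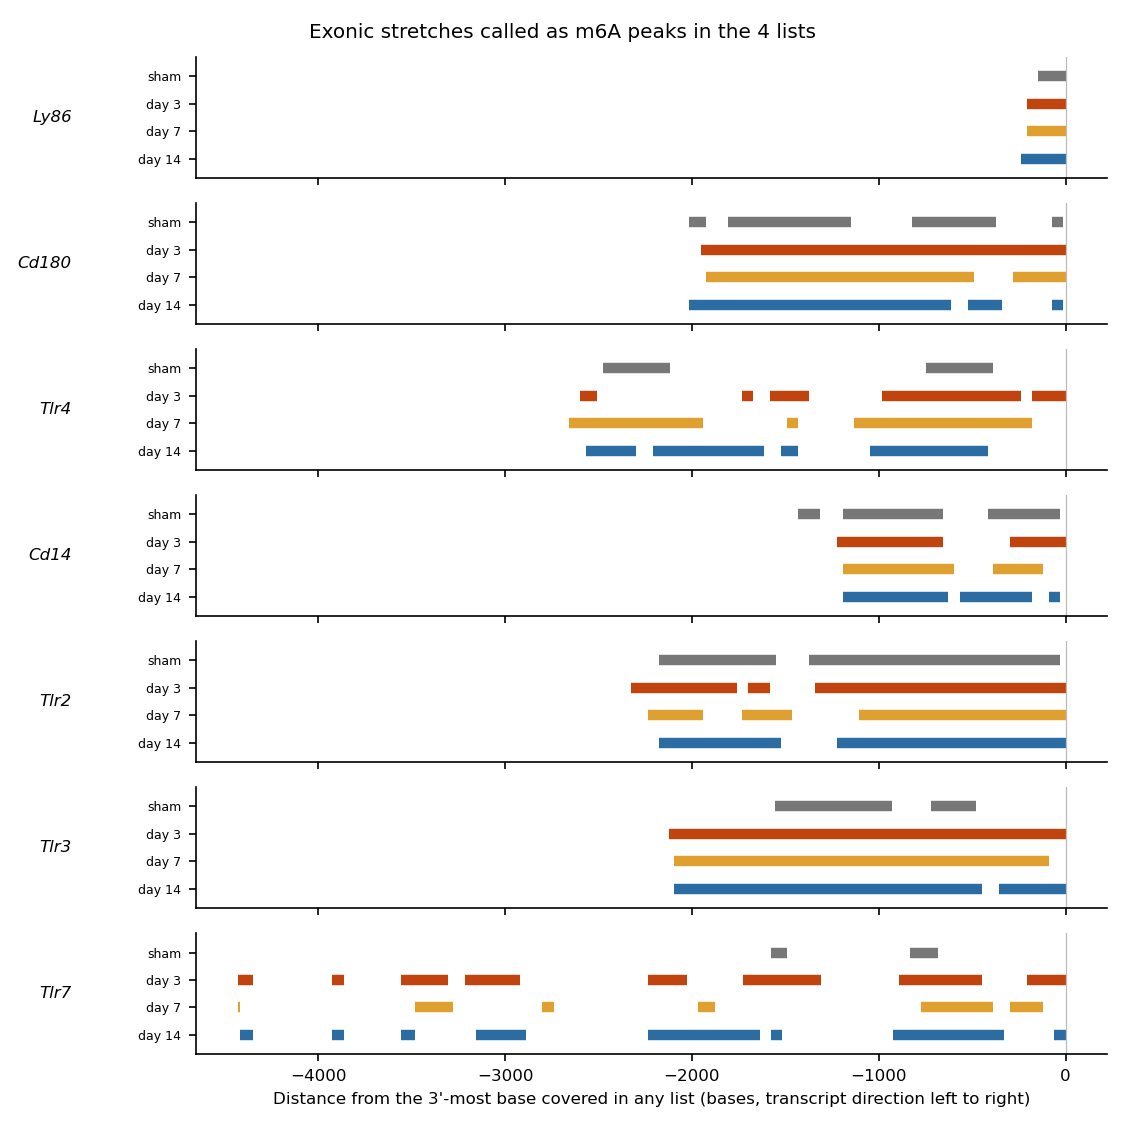
Exonic stretches called as m6A peaks in the 7 genes with peaks, as distance in bases from the 3′-most covered base (horizontal axis, transcript direction left to right), with 1 row per list. Ly86 has 1 short block at its 3′ end in every list, the sham blocks of Tlr3 lie inside longer blocks of day 3 and day 7, and 10 of 88 blocks that lie apart from the drawn stretch are not shown.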

How the data were processed

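The 9 genes and the gene lists were chosen with earlier results of these data known. Per the labels' protocols, poly(A) RNA was fragmented and part of it enriched with an m6A antibody, and libraries were read as pairs with second-strand dUTP marking. Per the submitters' processing notes HISAT2, StringTie, ChIPseeker and edgeR were used. No version, peak caller or build is given in the sources used here. Of 26126 gene symbols matched to RefSeq GRCm38.p6, 99.93% overlapped the gene of the same name.

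The authors deposited FPKM for the 12 input libraries, and peaks with a fold enrichment as a ratio, and a log10 p and log10 false discovery rate used here as a score, per the file headers. Whether replicates were pooled for peak calling is not given in the sources used here. Peak starts count from 0 and were raised by 1. Ratios of low FPKM values between a pair of libraries gathered at no common step, so whole reads were not recovered, no count test was run and depth is unknown.

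Genes with a mean of at least 0.5 FPKM over 12 libraries were fitted as log2(FPKM + 0.5) with limma 3.58.1 in R 4.3.3 (trend, 4 group means in 1 fit), with Benjamini-Hochberg adjustment within each comparison and a threshold of 0.05. Shares over all genes come from the same fits. The fitting steps were also run on simulated data with independent libraries, where none stood apart as 2 did here. That run does not show how the fits treat such libraries. For day 7 and sham, deviations from the group means correlated in all 3 same-numbered pairs (0.459, 0.534 and 0.793), so values with the replicate number as a block stand beside those results. Libraries 1 and 2 of these groups also correlated across numbers (0.492 and 0.619). In each other pair of groups at least 1 same-numbered pair was below 0.1. All 9 genes were named, with list genes that passed, otherwise the 2 of smallest p per list, and the 5 genes most like Ly86 and Cd180. Irf7, Irf3, Traf3, Hmgb1, Bgn, Tmem119, C1qa and other marker genes were named after their values were seen. Peak overlap used exonic bases of the same gene (Python 3.11.15).

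Alternatives were other pseudocounts, filters, scalings and fits, each library left out, near-identical libraries averaged into 6 samples, stricter peaks and other overlaps. Leaving out both libraries that stood apart together with no filter or a replicate block, and the alternatives of the level relative to microglia markers, were added after seeing the data.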

Additional observations from a re-analysis of the deposited data

How the results depend on the processing

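The number of the 7 tested genes past the threshold depended on the processing. On day 3 against sham it was 1 (Ly86). It was 0 with 2 groups only and with 6 averaged samples, and 2 with array weights, which added Cd180. Leaving out single libraries gave 0 to 1, with 0 without day 3 library 1 or library 2. On day 7 it was 2 (Ly86 and Cd180). It was 1, Ly86, with a pseudocount of 0.1, a filter of 1 FPKM, TPM, median of ratios and quantile scaling, and 1 without both libraries that stood apart together with no filter or with the replicate block. It was 0 with no filter, with 2 groups only, with 6 averaged samples and, with all libraries, with the replicate number as a block. Leaving out single libraries gave 0 to 1, the 1 being Ly86 without sham library 3. On day 14 it was 0, and 1 (Ly86) with array weights and without both libraries that stood apart, also with no filter or a replicate block. For day 7 against day 3 it was 0, and 1 (Ly86) with array weights and without both libraries. For day 14 against day 3 it was 0, and 1 (Ly86) with 2 groups only, with array weights, and without both libraries, also with no filter or a replicate block. The cause was not tested. Over all pairs of groups, same-numbered libraries had correlations of -0.105 to 0.793. The replicate block with all libraries changed no call other than the day 7 ones.

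Over 27 alternatives the log2 difference of Ly86 ran from 1.09 to 1.41 on day 3, passing in 23, and from 0.69 to 1.02 on day 7, passing in 12. That of Cd180 on day 7 ran from 0.47 to 1.04 over 26, passing in 4. Peaks that reached a fold of 2 and a p of 1e-05 numbered 11 of 17 in sham, 10 of 20 on day 3, 14 of 18 on day 7 and 11 of 22 on day 14. The share over all peaks is not given here, but their median log10 p was -16.4, -8.1, -11.6 and -9.21 in these lists. The counts are thus no trait of the 9 genes. An overlap of 80% left 2, 2 and 4 shared peaks, and 1 base gave 11, 12 and 15. The day 7 shift of Cd180 relative to microglia markers was 0.418 with a pseudocount of 0.1. Since depth is unknown, the counting error of Tlr4, Tlr7 and the induced genes, which had no test, cannot be given.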
